A study of Mus musculus with 9 samples.

Results

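The 10 immediate early and AP-1 genes Fos, Fosb, Fosl2, Jun, Junb, Jund, Egr1, Ier2, Atf3 and Myc were followed in livers of mice with nonalcoholic steatohepatitis (NASH). They were chosen by name from the 24008 genes with counts, by a rule that uses no measured value, though with earlier results of these data known. RNA was sequenced from the livers of 9 mice, with 1 library per mouse and 3 mice in each of 3 groups. All mice were fed a high fat and high carbohydrate diet with sugar water to induce NASH, for a time that the study's methods give as 24 weeks in the experiment design and as 12 weeks in the section on the virus. Flox mice, labelled WT, carried floxed Irf4 alleles without Cre. F4MKO mice lacked IRF4, a transcription factor, in skeletal muscle through a Cre driven by a myosin light chain promoter, and their livers kept the gene. F4MKO+FSTL1 mice were F4MKO mice whose gastrocnemius was injected with an AAV8 that drives FSTL1, a secreted glycoprotein, from a muscle creatine kinase promoter, 4 weeks before collection. According to the methods Flox and F4MKO mice received AAV-GFP, whereas the labels name no vector for them, so the third group differed from F4MKO mice by the FSTL1 virus alone only if the methods hold for these livers.

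Immediate early genes are switched on within minutes of a stimulus, without new protein synthesis, and their RNAs are short-lived. FOS and JUN proteins pair to form the AP-1 transcription factor, JUN proteins can also pair among themselves, and FOS proteins need a JUN partner. EGR1 is a zinc finger transcription factor, ATF3 a stress-induced relative of AP-1, MYC a driver of growth, and IER2 a nuclear protein of the same early response. In liver these genes are best known for their rise after partial hepatectomy, injury and inflammatory signals.

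Promoter sequence was looked up because these genes are read out through short elements near their start, of which the cAMP response element (TGACGTCA) and the AP-1 element (TGACTCA) are the best known. RefSeq promoters (GRCm38.p6, 250 bases before to 50 after the start) were matched for 7 of the 10 genes. The last 120 bases before the start are shown for Fos, Junb, Jun and Atf3, which stand for the FOS, JUN and ATF families among the genes with a match. Capitals mark TGACG, the core of the cAMP response element, its reverse complement CGTCA, or TGACATCA, whose letters resemble both the cAMP response element and the AP-1 element.
Fos, chr12:85473770-85473889, plus strand: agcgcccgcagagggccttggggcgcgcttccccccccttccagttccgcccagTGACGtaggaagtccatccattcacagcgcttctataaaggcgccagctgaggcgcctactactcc
Junb, chr8:84978749-84978868, minus strand: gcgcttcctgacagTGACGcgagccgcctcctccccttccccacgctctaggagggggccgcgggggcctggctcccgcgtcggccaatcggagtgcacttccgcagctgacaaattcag
Jun, chr4:95052223-95052342, minus strand: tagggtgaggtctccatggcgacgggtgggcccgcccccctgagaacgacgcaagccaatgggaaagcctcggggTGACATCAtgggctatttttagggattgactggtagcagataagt
Atf3, chr1:191183334-191183453, minus strand: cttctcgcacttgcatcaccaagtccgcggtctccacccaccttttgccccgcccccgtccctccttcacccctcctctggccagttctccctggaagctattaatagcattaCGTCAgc

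Fos carried TGACG 66 bases before its start and again 129 bases before it, Junb 106 bases and Fosb 60 bases before theirs, and Atf3 carried CGTCA 7 bases before its start. Jun carried TGACATCA 45 bases before its start. On either strand, TGACG was present in 4 of the 7 promoters and in 20.8% of all 32851 RefSeq promoters of the same length, and TGACATCA in 1 of 7 and in 3.62% of all. The full TGACGTCA (1.79% of all promoters), which contains TGACG, the AP-1 element TGACTCA (5.20%) and the serum response element known as the CArG box (1.63%) were each present in 0 of the 7 windows. These matches describe letters in a window and were not tested for binding. Sites more than 250 bases before the start were not searched, nor were Egr1, Ier2 and Myc, which had no matched promoter. An absence in these windows therefore does not show that a gene lacks the element. The RefSeq start of Atf3 lies inside the longer gene of the GENCODE vM21 annotation, on the minus strand of chromosome 1.

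Library totals of reads assigned to genes ran from 20656976 to 24322984, and 14379 genes had enough counts to be tested. The 10 listed hepatocyte markers summed to between 69212 and 103111 CPM (read counts scaled to library size, with TMM normalization) in the 9 libraries, and none was at 0, so the livers carried the markers of their label. Irf4 in liver does not check a deletion in muscle. Its counts were 131, 132 and 101 in Flox, 120, 128 and 130 in F4MKO and 10, 92 and 116 in F4MKO+FSTL1, so replicate 1 of the last group stood apart from the other 8 libraries. Liver Fstl1 measured 6.15, 7.62 and 6.52 CPM in Flox, 16.1, 9.80 and 11.3 in F4MKO and 5.33, 3.22 and 4.33 in F4MKO+FSTL1. By qPCR, the study reports no change of this RNA in liver after the FSTL1 virus. Nothing says whether same-numbered mice shared a cage or day. Each p-value sets a difference between groups against the spread between single livers within groups, estimated with help from the other genes.

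Divided by exon length, the 10 genes fell into 3 tiers. The median of the 9 libraries was 15.4 CPM per kb of exon for Junb, 13.2 for Jund, 13.1 for Ier2 and 12.3 for Jun, and neighbouring ranges overlapped. The next tier began at 3.79 CPM per kb for Myc, below the whole range of Jun, and went on with Egr1 (3.27), Atf3 (1.97), Fosl2 (1.10) and Fos (0.733), each overlapping its neighbour. Fosb, at 0.0384 CPM per kb, lay below the whole range of Fos. On this scale, the ranges of all 3 JUN family genes lay above those of all 3 FOS family genes. Exons of Jun, Junb and Jund share 232, 173 and 877 bases with genes on the opposite strand (Junos, Prdx2 and Gm11175), and as the use of strand in counting is not given in the sources used here, some of their reads may belong to those genes.

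**Figure D1:**
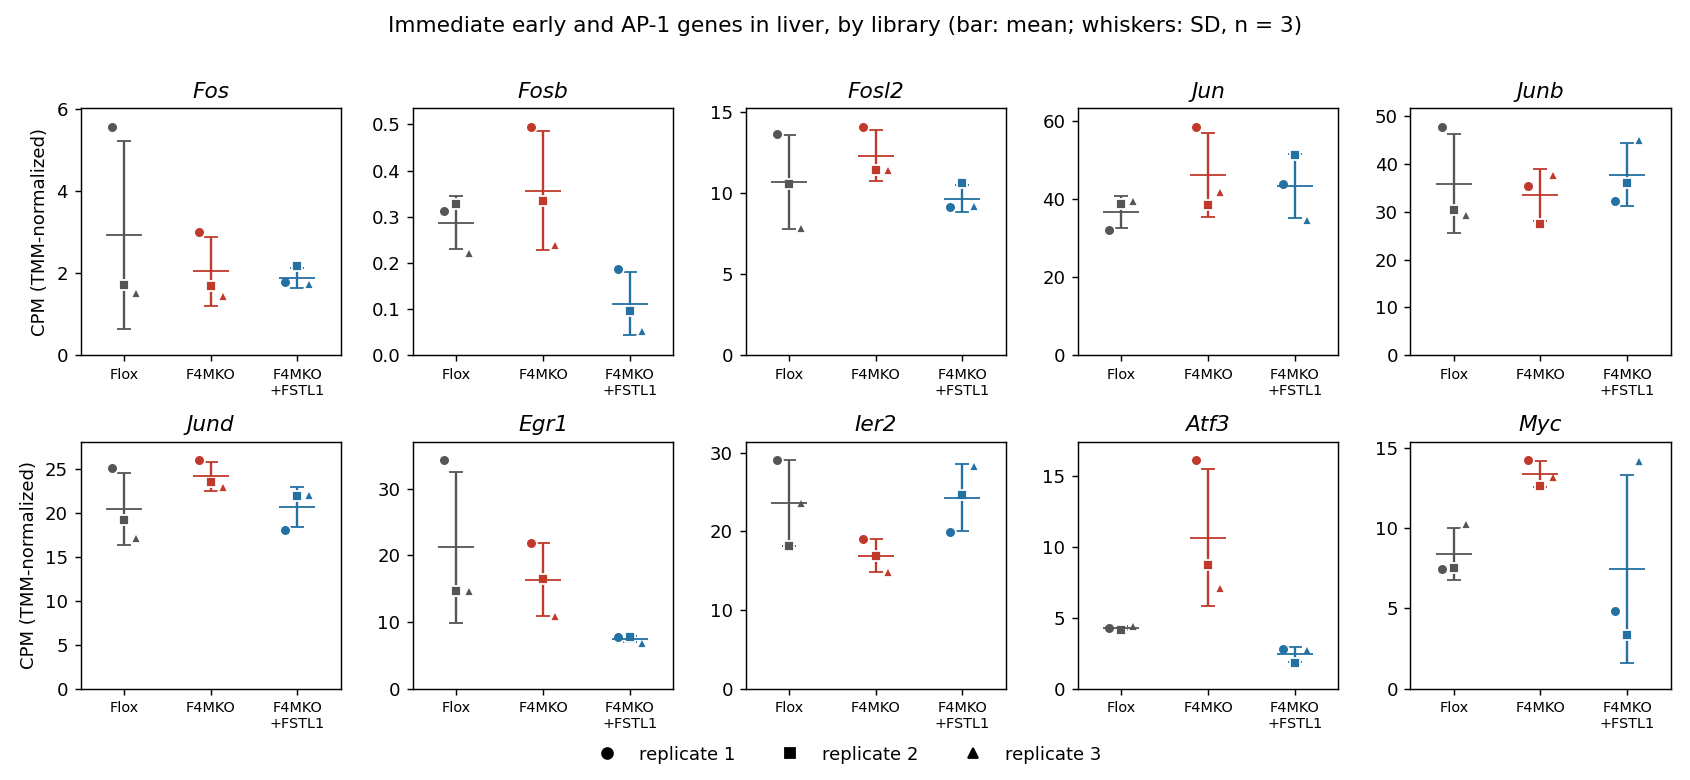
TMM-normalized CPM of the 10 genes (vertical axes, from 0) in Flox, F4MKO and F4MKO+FSTL1 livers (horizontal axis), with a symbol per library, a bar for the mean and whiskers for the SD of 3 mice. Atf3 and Egr1 lay lower in each F4MKO+FSTL1 liver than in any F4MKO liver, while the Fos and Egr1 levels of Flox replicate 1, at 5.57 and 34.3 CPM, stood above those of the other Flox livers.

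Among FOS family members no difference between groups passed the threshold. Fos, the archetypal immediate early gene, measured 5.57, 1.72 and 1.51 CPM in Flox livers, 3.01, 1.68 and 1.44 in F4MKO livers and 1.78, 2.16 and 1.72 in F4MKO+FSTL1 livers. The highest value of all 9 was Flox replicate 1, and the 3 groups overlapped. The log2 fold change of F4MKO against Flox was -0.51 ± 0.46 (SE), and without Flox replicate 1 it was 0.34, the opposite sign. Against F4MKO, F4MKO+FSTL1 livers differed by -0.12 ± 0.48 on the log2 scale (adjusted p = 0.881, edgeR quasi-likelihood test), which turned to 0.28 without F4MKO replicate 1.

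Fosl2, which encodes FRA2, an AP-1 subunit linked to fibrosis, measured 13.6, 10.5 and 7.85 CPM in Flox, 14.1, 11.4 and 11.4 in F4MKO and 9.11, 10.6 and 9.19 in F4MKO+FSTL1. All F4MKO livers lay above all F4MKO+FSTL1 livers, and the Flox livers spanned both. The log2 fold change of F4MKO+FSTL1 against F4MKO was -0.35 ± 0.18, with an adjusted p of 0.191 in edgeR. Fosb, the remaining family member, was too low to test. Its counts were 7, 8 and 5 in Flox, 14, 8 and 6 in F4MKO and 4, 2 and 1 in F4MKO+FSTL1, between 1 and 14 reads per library. All F4MKO+FSTL1 livers lay below the 6 other livers in CPM, and in the edgeR fit without the filter on low counts Fosb was called in none of the 3 comparisons.

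In the JUN family no difference passed the threshold in any of the 3 comparisons. Jun, the most potent activating partner of FOS, measured 32.1, 38.8 and 39.4 CPM in Flox, 58.5, 38.4 and 41.8 in F4MKO and 43.9, 51.2 and 34.7 in F4MKO+FSTL1. F4MKO replicate 1 was the highest, and every pair of groups overlapped. The log2 fold changes were 0.33 ± 0.17 for F4MKO against Flox (adjusted p = 0.359) and -0.10 ± 0.17 for F4MKO+FSTL1 against F4MKO (adjusted p = 0.732), both by edgeR. Junb, which can restrain JUN, measured 47.9, 30.4 and 29.4 CPM in Flox, 35.4, 27.4 and 37.8 in F4MKO and 32.2, 36.1 and 45.1 in F4MKO+FSTL1. These groups overlapped throughout, and the log2 fold changes of Junb were -0.10 ± 0.20 and 0.17 ± 0.20 in the same comparisons. Jund, the constitutive JUN family member, measured 25.1, 19.1 and 17.2 CPM in Flox, 26.0, 23.5 and 23.0 in F4MKO and 18.1, 22.0 and 22.0 in F4MKO+FSTL1. All F4MKO livers again lay above all F4MKO+FSTL1 livers, by a small margin, with a log2 fold change of -0.22 ± 0.14 for F4MKO+FSTL1 against F4MKO (adjusted p = 0.292, edgeR).

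Egr1, whose protein binds GC-rich promoters downstream of MAP kinase signalling, fell in F4MKO+FSTL1 livers compared with F4MKO livers. It measured 34.3, 14.7 and 14.6 CPM in Flox, 21.9, 16.4 and 10.9 in F4MKO, and 7.71, 7.69 and 6.89 in F4MKO+FSTL1. All F4MKO+FSTL1 livers lay below all 6 other livers, whereas Flox and F4MKO livers overlapped. The log2 fold change was -1.14 ± 0.34 for F4MKO+FSTL1 against F4MKO, which passed the threshold (adjusted p = 0.0340, edgeR). The call was lost, with adjusted p between 0.0633 and 0.138, when F4MKO replicate 1, F4MKO replicate 2 or any 1 of the F4MKO+FSTL1 libraries was left out, at log2 fold changes from -1.16 to -0.87. Against Flox, the log2 fold change of F4MKO+FSTL1 was -1.51 ± 0.34 and missed the threshold in edgeR (adjusted p = 0.102) but passed it in DESeq2 (adjusted p = 0.000613). Without Flox replicate 1 it was -0.98. For F4MKO against Flox the Egr1 log2 fold change was -0.37 ± 0.32 (adjusted p = 0.586), and 0.16 without Flox replicate 1.

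Ier2 ran the other way. It measured 29.1, 18.1 and 23.7 CPM in Flox, 19.0, 16.8 and 14.8 in F4MKO and 19.9, 24.6 and 28.4 in F4MKO+FSTL1. Each F4MKO+FSTL1 liver was above each F4MKO liver. The log2 fold change of 0.52 ± 0.18, a fold of 1.44, missed both the 1.5-fold threshold and that on adjusted p (0.0598, edgeR). In DESeq2 the adjusted p was 0.0300 and the log2 fold change 0.54, so the fold alone missed. Ier2 passed both at a log2 fold change of 0.65 (adjusted p = 0.0379, edgeR) when F4MKO+FSTL1 replicate 1, the library low in Irf4, was left out. For F4MKO against Flox the log2 fold change of Ier2 was -0.48 ± 0.18, with an unadjusted p of 0.0205 and an adjusted p of 0.213 in edgeR.

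Atf3, induced by endoplasmic reticulum and oxidative stress and by cytokines, showed the most separated groups of the 10 genes. It measured 4.24, 4.14 and 4.44 CPM in Flox, 16.1, 8.71 and 7.11 in F4MKO, and 2.76, 1.83 and 2.72 in F4MKO+FSTL1. No pair of groups overlapped, and F4MKO replicate 1 was the highest liver. Atf3 fell in F4MKO+FSTL1 livers compared with F4MKO, to 0.228 of its level, with a log2 fold change of -2.13 ± 0.29 (adjusted p = 0.00152, edgeR). This call was kept under each of the 15 alternatives tried, with log2 fold changes from -2.35 to -1.70 and adjusted p of at most 0.0104. For F4MKO against Flox the log2 fold change was 1.32 ± 0.28, a fold of 2.50, and missed the threshold in edgeR (adjusted p = 0.0610). DESeq2 called it (adjusted p = 0.00112), and over the 15 alternatives the adjusted p ran from 0.000940 to 0.179. Without F4MKO replicate 1 this log2 fold change was 0.89. Against Flox, F4MKO+FSTL1 livers had an Atf3 log2 fold change of -0.81 ± 0.30 (adjusted p = 0.273, edgeR).

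Myc, the growth-promoting transcription factor, depended on 1 liver. It measured 7.44, 7.50 and 10.3 CPM in Flox, 14.3, 12.6 and 13.2 in F4MKO, and 4.86, 3.36 and 14.2 in F4MKO+FSTL1. F4MKO livers lay above all Flox livers, with a log2 fold change of 0.67 ± 0.38 that missed the threshold (adjusted p = 0.404, edgeR). Among F4MKO+FSTL1 livers, replicate 3 was as high as the F4MKO livers and replicates 1 and 2 were below all other livers. The log2 fold change against F4MKO was -0.85 ± 0.39 (adjusted p = 0.145), and without F4MKO+FSTL1 replicate 3 it was -1.69 (adjusted p = 0.00115, edgeR).

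**Figure D2:**
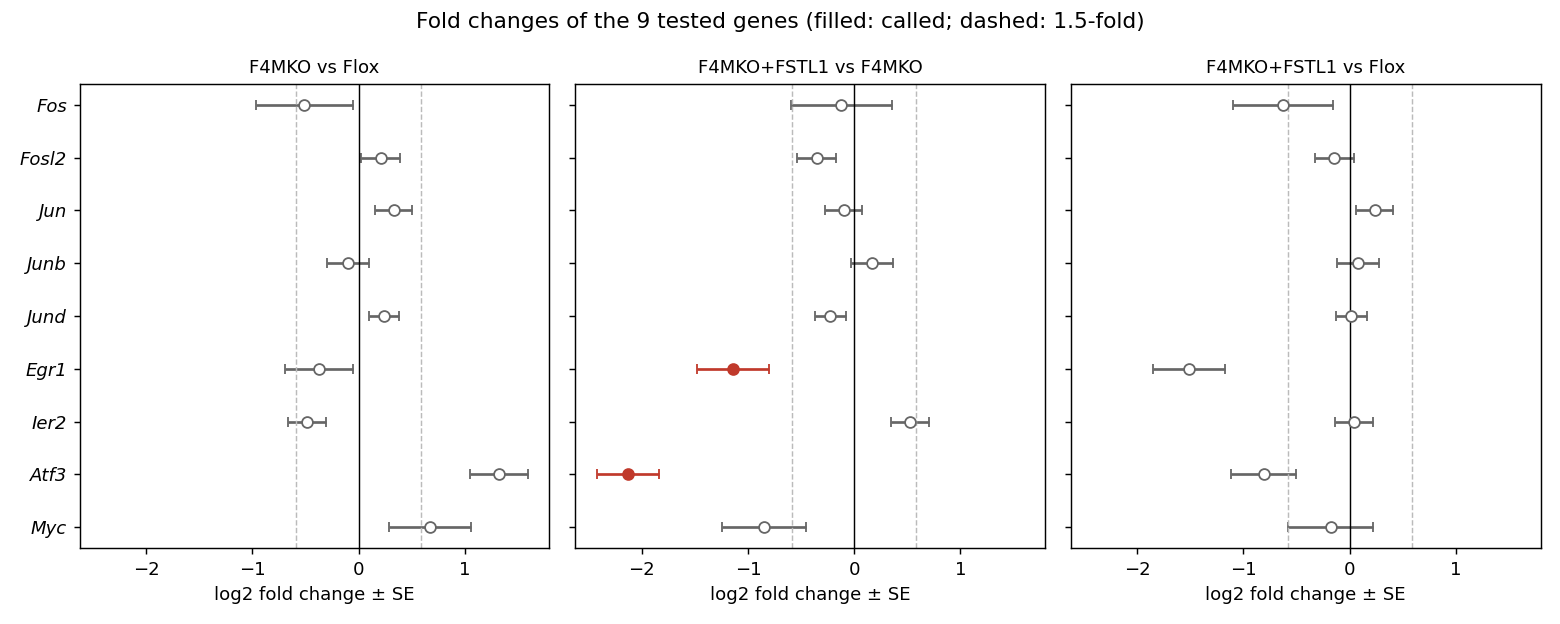
Log2 fold changes (horizontal axes, whiskers ± SE) of the 9 tested genes (rows) in the 3 comparisons, from edgeR over 9 libraries. Filled points passed the threshold and dashed lines mark a 1.5-fold change. Filled points are present in the F4MKO+FSTL1 against F4MKO panel alone, for Egr1 at -1.14 and Atf3 at -2.13.

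A gene was called at an adjusted p under 0.05 (Benjamini-Hochberg, over all 14379 genes) and a fold change above 1.5. In F4MKO against Flox, 0 of the 9 tested genes were called by edgeR, beside 0.271% of all genes (0.202% higher and 0.0695% lower). DESeq2 called 1 (Atf3), and 2 (Ier2 and Atf3) had an unadjusted p under 0.05, beside 16.9% of all genes. The groups did not overlap for 2 genes, Atf3 and Myc, both higher, beside 21.8% of all genes in either direction and 11.7% higher. The median log2 fold change of the 9 genes was 0.21, and that of all genes was -0.003.

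In F4MKO+FSTL1 against F4MKO, 2 of 9 were called, both lower, beside 14.4% of all genes called, 11.2% lower and 3.21% higher. An unadjusted p under 0.05 was reached by 3 of 9 (Egr1, Ier2 and Atf3), beside 35.3% of all genes. The groups did not overlap for 5 of 9 genes, beside 39.0% of all genes. Of these, 4 were lower (Fosl2, Jund, Egr1 and Atf3), beside 21.1% of all genes, and Ier2 was higher, beside 18.0%. The median log2 fold changes were -0.22 for the 9 genes and 0.01 for all genes. Between F4MKO+FSTL1 and Flox, edgeR called 0 of 9, beside 0.00695% of all genes, and DESeq2 called 1 (Egr1). An unadjusted p under 0.05 was reached by 2 of 9 (Egr1 and Atf3), beside 13.4% of all genes, and these were also the 2 whose groups did not overlap, both lower, beside 18.2% of all genes in either direction, 10.7% lower and 7.44% higher. The first 2 comparisons share the F4MKO livers, so high values in F4MKO replicate 1 move both. Without this library the log2 fold changes of Atf3 shrank from 1.32 to 0.89 and from -2.13 to -1.70. Those of Ier2 grew from -0.48 to -0.58 and from 0.52 to 0.61. With 9 genes, 1 call more or fewer moves the share across that of all genes, so these counts show nothing particular to the list.

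Variation between livers of a group was wide for several of the genes. The within-group SD of log2 CPM was 0.67 for Fos, 0.64 for Myc, 0.50 for Egr1 and 0.40 for Atf3, beside a median of 0.196 over all tested genes. For Fos and Myc these SDs were wider than those of 96.7% and 96.0% of all tested genes, and for Egr1 and Atf3 than those of 91.3% and 83.9%. Junb (0.30), Ier2 (0.27), Jun (0.26) and Fosl2 (0.26) came next, and Jund (0.19) was just below the median, so 8 of the 9 genes exceeded it. Low counts widen such an SD, so each gene was also set against genes within 0.5 log2 CPM of its own level. Against these, the SD was wider than that of 98.5% of genes for Myc, 97.8% for Egr1, 95.3% for both Fos and Junb, 92.6% for Jun, 89.8% for Ier2, 89.1% for Atf3, 82.0% for Fosl2 and 75.4% for Jund.

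The group in which a gene varied most differed between genes. The coefficient of variation of Egr1 was 53.4% in Flox, 33.6% in F4MKO and 6.26% in F4MKO+FSTL1, and that of Fos was 78.0%, 41.5% and 12.7%, in the same order. For Myc it was 19.4%, 6.10% and 78.6%, and for Atf3 3.58%, 45.1% and 21.6%. Each rests on 3 mice, and the differences between these coefficients were not tested. Flox replicate 1 was the highest Flox liver for 6 of the 10 genes (Fos, Fosl2, Junb, Jund, Egr1 and Ier2) and F4MKO replicate 1 the highest F4MKO liver for 9 of 10, all but Junb. In F4MKO+FSTL1 the highest values were divided 3, 3 and 4 among replicates 1, 2 and 3.

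**Figure D3:**
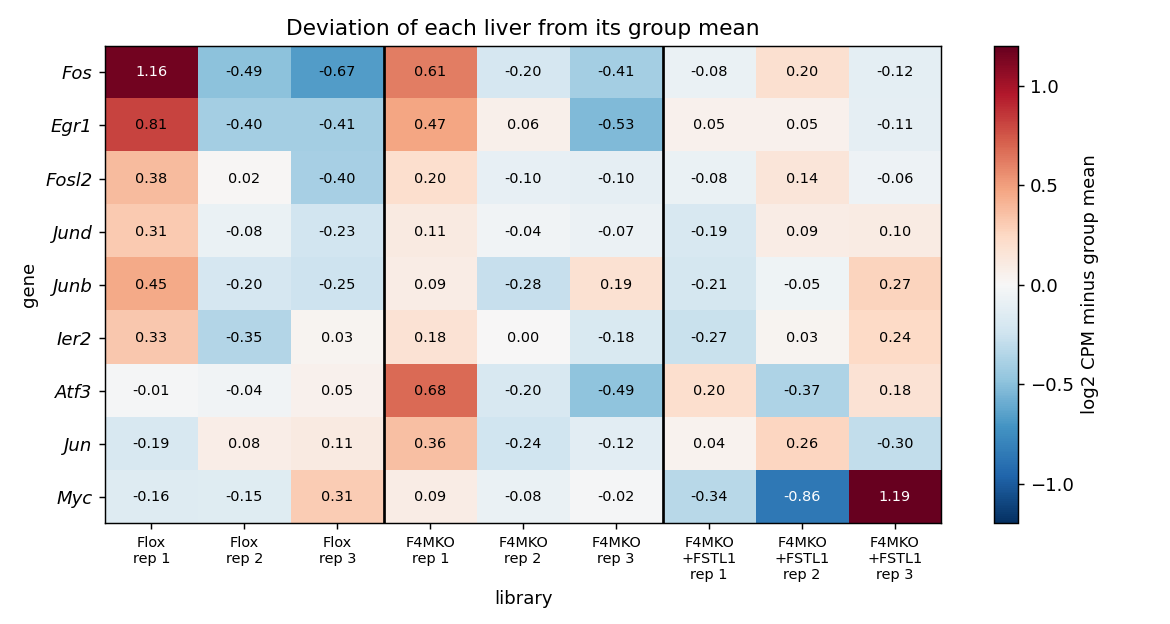
Deviation of each library (columns) from the mean of its group in log2 CPM for the 9 tested genes (rows), with red above and blue below the group mean. Fos and Egr1 share the same pattern, with 1.16 and 0.81 in Flox replicate 1, while Myc stands out in F4MKO+FSTL1 replicate 3 at 1.19.

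Several of the genes deviated together. Over the 9 libraries, the deviations of Fos from its group means had a Pearson r of 0.96 with those of Egr1 (Spearman's rho 0.83), 0.90 with Fosl2 and 0.87 with Jund. Fosl2 and Jund had an r of 0.88, and Junb and Jund 0.80. Of the 36 pairs, 13 had an r above 0.6 and 7 an r below 0. Jun reached at most 0.34, with Atf3, and at least -0.48, with Myc, so the 2 genes whose proteins make up the classical AP-1 dimer, Fos and Jun, had an r of 0.07. These are descriptions of 9 livers that share 3 group means and their library sizes, and carry no test.

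Flox replicate 1 weighed on this picture. Without it, which was an alternative chosen after seeing the data, the r of Fos and Egr1 was 0.87 (rho 0.57), that of Junb and Jund was 0.51, and that of Fos and Jun was 0.82, with 8 of 36 pairs above 0.6. The within-group SD without it was 0.36 for Fos and 0.32 for Egr1. In the same liver the clock gene Per1 measured 9.14 CPM, against 38.6 and 38.4 in the other Flox livers, and Ciart, another clock gene, measured 0.713 against 6.68 and 7.81. The heat shock gene Hspb1 measured 219 CPM in it, against 99.6 and 99.7. These 3 genes were chosen after their values were seen, and their part in the deviations was not tested. The 10 listed heat shock genes together summed to 2730 CPM in this liver, the highest of the 3 Flox livers, which began at 1782. The same sum was 1581 to 1919 CPM in F4MKO and 2042 to 2668 CPM in F4MKO+FSTL1, so a high sum was not particular to this liver.

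The genes of the whole tested table whose deviations were most like those of Fos were Ubl4a (r = 0.99), Vps37c (0.98) and Cldn1 (0.98). For Egr1 they were Fbxl16 (0.99), Lrrc59 (0.98) and Chka (0.98), for Jun Atrn (0.97) and Hipk2 (0.96), and for Myc Zfp26, Kcnab1 and Pkig (0.96 each). They were picked from 14378 genes over 9 libraries, and the gene ranked 100 still had an r of 0.88 with Fos, 0.89 with Egr1 and Myc, and 0.85 with Jun.

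Genes upstream of the early response showed few differences. Among 17 MAP kinases and the transcription factors SRF and ELK that switch these genes on, edgeR called 0 in F4MKO against Flox (1 with an unadjusted p under 0.05, and 0 by DESeq2) and 1 in F4MKO+FSTL1 against F4MKO. That gene, Rps6ka3, encodes the kinase RSK2 and fell by 0.67 on the log2 scale. Of 11 feedback inhibitors of MAP kinase signalling, 0 were called in F4MKO against Flox (5 with an unadjusted p under 0.05, and 0 by DESeq2) and 3 in F4MKO+FSTL1 against F4MKO. The share of all genes called was 0.271% in the first of these comparisons and 14.4% in the second. Spry4 rose (log2 fold change 1.52), and Spry1 and Dusp10 fell (-0.81 and -0.75). Spry4 measured 3.40, 3.64 and 2.71 CPM in F4MKO and 10.8, 7.79 and 9.51 in F4MKO+FSTL1, so the Sprouty genes moved in opposite directions.

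Of 34 other immediate early genes 32 were tested, and 6 were called in F4MKO+FSTL1 against F4MKO, all lower, a share near that of all genes (14.4% called, 11.2% lower). Over the 32, the median log2 fold change was -0.24. The largest falls were those of Gadd45b, a stress-induced growth regulator (-1.53), Egr3, a relative of Egr1 (-1.47), and Ctgf, a matricellular protein gene (-1.37). The remaining 3 were Klf6 (-1.36), Btg2 (-0.95) and Sgk1 (-0.88), named here because the count is small. The count was 2 without F4MKO+FSTL1 replicate 2 and 3 without F4MKO replicate 1. Between F4MKO and Flox, edgeR called 0 of the 32, DESeq2 1, and 9 had an unadjusted p under 0.05. Of 14 other AP-1 and related bZIP genes, 13 were tested and 1, Creb5, was called in F4MKO+FSTL1 against F4MKO (-1.61). Both edgeR and DESeq2 called 0 of these 13 in F4MKO against Flox, and 2 had an unadjusted p under 0.05. Fosl1, the FOS relative that encodes FRA1, had 0 counts in 7 libraries and 4 and 2 in F4MKO replicates 1 and 2.

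**Figure D4:**
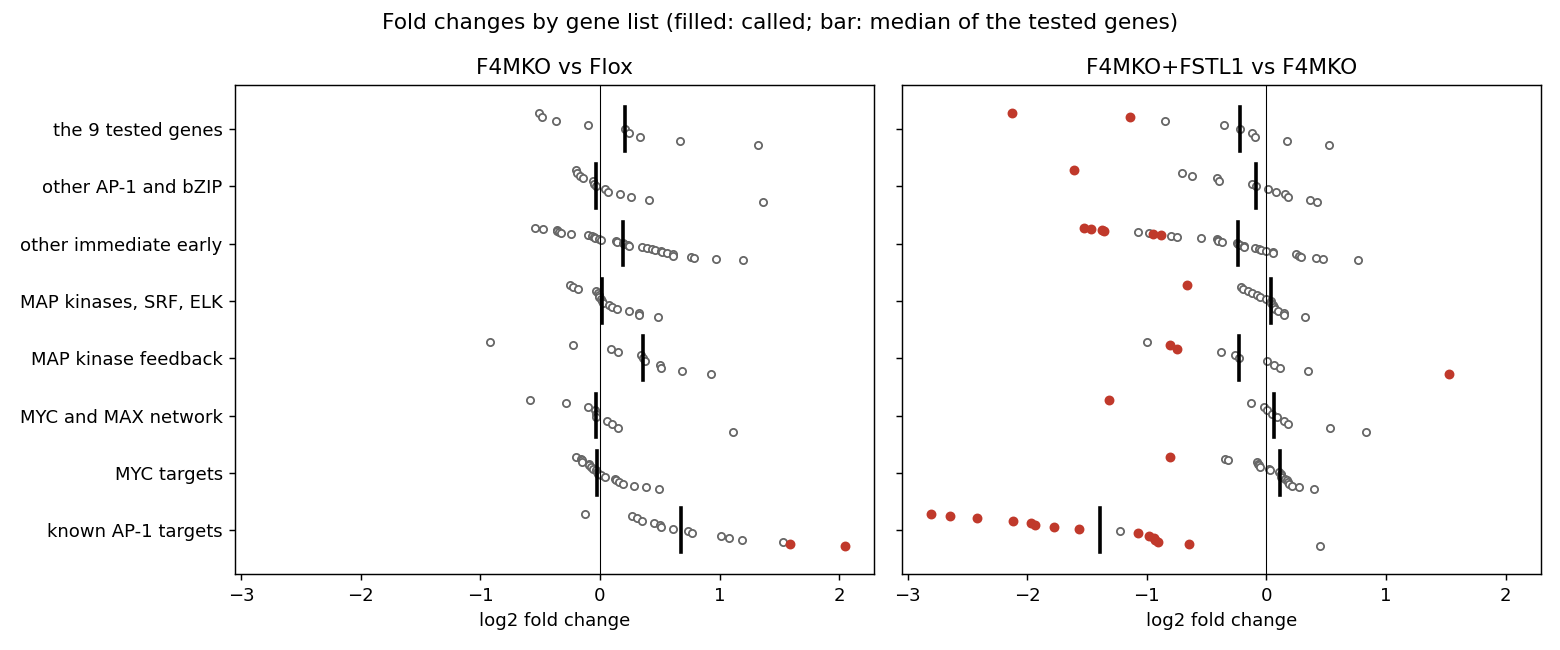
Log2 fold changes (horizontal axes) of the tested genes of each list (rows) in F4MKO against Flox and F4MKO+FSTL1 against F4MKO, with a point per gene, filled where called, and a bar at the list's median. Known AP-1 targets have a median of 0.68 in the first panel and -1.39 in the second, with 14 of 16 called, while the 9 tested early genes have medians of 0.21 and -0.22. The lists were chosen with earlier results of these data known.

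The listed AP-1 targets differed more than the AP-1 genes themselves, but the list was chosen with earlier results of these data known. The contrast is therefore a description and no test. Of 16 such genes 14 were called in F4MKO+FSTL1 against F4MKO, all lower, beside 14.4% of all genes called and 11.2% lower. Their median log2 fold change was -1.39, beside 0.01 for all genes. Ccnd1, the cell cycle gene of cyclin D1, fell by 2.81 on the log2 scale (SE 0.29), Spp1, the gene of the matrix protein osteopontin, by 2.64 (SE 0.35), and Cdkn1a, the gene of the cell cycle inhibitor p21, by 2.42 (SE 0.37). Ccnd1 measured 13.8, 25.4 and 16.5 CPM in Flox, 61.7, 53.4 and 52.5 in F4MKO and 9.58, 4.33 and 10.1 in F4MKO+FSTL1. Spp1 measured 59.4, 78.2 and 42.2 CPM in Flox, 397, 143 and 203 in F4MKO and 45.6, 29.8 and 43.7 in F4MKO+FSTL1. For both genes each F4MKO liver was above all 6 other livers.

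Between F4MKO and Flox, 15 of the 16 targets had a log2 fold change above 0, with a median of 0.68. Of the 16 targets 2 were called, Spp1 (2.05) and Ccnd1 (1.59), both higher, beside 0.271% of all genes called. The count was 5 with DESeq2, and it was 0 in 6 of the 9 fits with 1 library left out. Between F4MKO+FSTL1 and Flox, edgeR called 0, DESeq2 called 2, 12 had an unadjusted p under 0.05, and the log2 fold changes had a median of -0.59. The summed level of the 16 targets was 289 to 336 CPM in Flox, 475 to 771 in F4MKO and 268 to 273 in F4MKO+FSTL1, so the 3 groups did not overlap. Spp1 alone made up 42.2 to 78.2 CPM of this in Flox, 143 to 397 in F4MKO and 29.8 to 45.6 in F4MKO+FSTL1. It thus carried a large part of the change in the sum. A target list of this kind names genes that AP-1 can drive, many of which have other regulators, and its change is no measure of AP-1 activity.

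In F4MKO+FSTL1 against F4MKO, most markers of stellate cells, macrophages and cholangiocytes were lower, as were most of these targets, Atf3 and Egr1. In F4MKO against Flox, 10 of 10 stellate cell, 7 of 7 tested cholangiocyte and 7 of 10 macrophage markers were higher. There the log2 fold change was 1.32 for Atf3 and -0.37 for Egr1, and that of Egr1 was 0.16 without Flox replicate 1. In F4MKO+FSTL1 against F4MKO 14.4% of all genes were called, 11.2% lower. Of 10 stellate cell and myofibroblast markers 6 were called there, all lower, led by the collagen genes Col1a1 (-2.25), Col3a1 (-1.98) and Col1a2 (-1.63). Of 10 macrophage markers 7 were called, all lower, led by the lipid-associated macrophage genes Gpnmb (-2.65) and Trem2 (-2.44) and by Cd9 (-1.19). The 3 that were not called, chosen here after their values were seen, were the resident Kupffer cell genes Clec4f (-0.29), Timd4 (0.51) and Marco (0.08). In F4MKO against Flox, where they also missed the threshold, their log2 fold changes were -0.36, -1.26 and -1.41. Cd5l, also a Kupffer cell gene, was among the 7 called. In F4MKO+FSTL1 against Flox 10 of 10 macrophage markers were lower, 9 with an unadjusted p under 0.05 in edgeR. Of 7 tested cholangiocyte markers 5 were called, all lower, led by Tspan8 (-3.09), Spp1 and Epcam (-2.58), and Spp1 stands in both the target and this list. Their summed levels in Flox, F4MKO and F4MKO+FSTL1 were 426 to 496, 573 to 733 and 278 to 386 CPM for the stellate cell list, 446 to 705, 551 to 646 and 264 to 411 for the macrophage list, and 70.9 to 110, 187 to 471 and 55.0 to 71.2 for the cholangiocyte list. Most of the cholangiocyte sum in F4MKO came from Spp1, at 143 to 397 CPM. The markers called in F4MKO against Flox were Gpnmb (1.70), Tspan8 (2.38), Spp1 and Epcam (2.01), all higher, and 0 stellate cell markers were called by edgeR there, 3 by DESeq2, with 5 at an unadjusted p under 0.05. In whole liver, fewer cells of a type and less RNA per cell cannot be told apart, and the part of cell composition in the levels of Atf3, Egr1 and the AP-1 targets was not tested.

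Markers of other cells moved less in F4MKO+FSTL1 against F4MKO. Hepatocyte markers were called for 2 of 10, both higher (Apoa2, 0.82, and Serpina1a, 0.68), beside 14.4% of all genes called and 3.21% higher. Of the 5 tested neutrophil markers 1 was called (Csf3r, -1.03), and of the 5 tested red blood cell markers 1 (Alas2, 0.62). Endothelial markers were called for 0 of 10 by edgeR and by DESeq2, with 2 at an unadjusted p under 0.05, and lymphocyte markers for 0 of 7 by both, with 1. At 0 in at least 1 library were 2 of the 8 listed neutrophil markers in Flox, 3 in F4MKO and 3 in F4MKO+FSTL1, and 1 of 8 cholangiocyte markers in F4MKO+FSTL1. None of the markers listed for hepatocytes, stellate cells, macrophages or endothelial cells was at 0.

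Genes of the circadian clock, which set the time of day of many liver transcripts, also differed. Of 12 clock genes 6 were called in F4MKO+FSTL1 against F4MKO, 4 higher and 2 lower. Of all genes 14.4% were called there, 3.21% higher and 11.2% lower. Arntl, the clock activator BMAL1, measured 13.8, 8.60 and 5.10 CPM in Flox, from 7.07 to 12.4 in F4MKO and 3.13, 2.79 and 3.13 in F4MKO+FSTL1, a log2 fold change of -1.71 against F4MKO. Npas2, its partner, had a log2 fold change of -2.05 and Dbp, a clock output gene, of 1.28. Dbp measured 24.2, 43.6 and 65.5 CPM in Flox, 21.3, 35.1 and 62.3 in F4MKO and 96.2, 111 and 80.8 in F4MKO+FSTL1, so it varied between livers of a group as well as between groups. The count of clock genes was 3 without F4MKO replicate 1 or 2 or without F4MKO+FSTL1 replicate 1 or 2. Both tools called 0 of 12 in F4MKO against Flox, and 0 had an unadjusted p under 0.05. The time of collection is not given in the sources used here, and its part in the levels of the early genes was not tested.

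Lists related to Myc, Atf3 and cell stress held few calls. Of 20 MYC targets in ribosome biogenesis and growth 1 was called in F4MKO+FSTL1 against F4MKO (Tfrc, the transferrin receptor gene, -0.81), and the median was 0.11. Of 10 genes of the MYC and MAX network 1 was called (Mxd3, a MAX partner, -1.31), and from 0 to 2 under the alternatives tried. Of 10 genes of ATF4 and the integrated stress response, which can induce Atf3, 1 was called (Vldlr, the gene of a lipoprotein receptor, -1.66). Atf4 and Ddit3 were not called. In this list 7 of 10 were lower and 5 had an unadjusted p under 0.05 in edgeR, beside 35.3% of all genes. Its count of calls ran from 0 to 4 under the alternatives tried. Of all genes 14.4% were called. Of 8 tested heat shock genes edgeR and DESeq2 each called 0, with 3 at an unadjusted p under 0.05. Both tools called 0 genes in F4MKO against Flox in each of these 4 lists, with 2, 2, 0 and 1 genes at an unadjusted p under 0.05, in the order given. Between F4MKO+FSTL1 and Flox, edgeR called 0 genes in every list, and DESeq2 called 3 clock genes, 4 macrophage, 2 stellate cell and 1 red blood cell markers beside the 2 AP-1 targets above, with 8, 9, 6 and 3 genes at an unadjusted p under 0.05 in the first 4 of these.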

How the data were processed

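The authors trimmed 150 bp paired-end reads with Trim Galore 0.6.7, mapped them to mm10 with HISAT2 2.2.1 and counted them on genes with featureCounts 2.0.1, per the labels and the study's methods. They deposited raw counts, 1 whole number per gene and library, neither normalized nor filtered for low values. The gene annotation and the handling of multimapping reads are not given in the sources used here.

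Differences were tested by the quasi-likelihood test of edgeR 4.0.16 (R 4.3.3), in 1 fit of all 9 libraries with a mean per group, after filterByExpr (minimum count 10, minimum total 15) and TMM normalization. The common biological coefficient of variation was 0.150. CPM are TMM-normalized, and their log2 was taken after adding a prior count of 2. Exon lengths came from GENCODE vM21 (GRCm38). With 3 mice against 3, an exact two-sided permutation p cannot go below 0.1, so none is given. On simulated data for F4MKO+FSTL1 against F4MKO, 199 of 14192 tested genes were given a change. The edgeR fit recovered 65.0% of the 2-fold and 90.9% of the 4-fold changes, with 12 false calls. The real comparison had 2070 calls. The biological coefficient of variation was 37.9% for Fos, 33.5% for Myc and 27.4% for Egr1, so these rates do not carry over to such genes.

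The members and gene lists were chosen with earlier results of these data known. Named genes are the 10 members, Irf4, Fstl1, up to 3 called genes with the largest change per other list and comparison, and the 3 genes most like Fos, Jun, Egr1 and Myc, of which 1 is not reported here. Genes outside this rule are named as such, or given as markers of a liver. DESeq2 1.42.0, its size factors, no filter, 6 libraries, a replicate block, no fold threshold and each library left out were tried.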

Additional observations from a re-analysis of the deposited data

How the results depend on the processing

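The number of the 9 tested genes called in F4MKO against Flox was 0, and it was 1 (Atf3) with DESeq2, without the filter on low counts and with the replicate block, and from 0 to 1 with single libraries left out (1 without F4MKO replicate 3). In F4MKO+FSTL1 against F4MKO it was 2, and from 1 to 2 with single libraries left out. It was 1 (Atf3) without F4MKO replicate 1, F4MKO replicate 2 or F4MKO+FSTL1 replicate 2, and 3, with Myc added, without the filter and with the block. In F4MKO+FSTL1 against Flox it was 0, and 1 (Egr1) with DESeq2 and without the filter. The cause of these changes was not tested. With the replicate block, Atf3 passed in F4MKO against Flox (log2 fold change 1.25, adjusted p = 0.0475, edgeR) and Myc in F4MKO+FSTL1 against F4MKO (-1.02, adjusted p = 0.0454, edgeR), and the block changed no other call of the 9 genes. The labels do not say whether same-numbered mice were paired, and the main fit has no block. For replicates 1, 2 and 3, deviations of same-numbered libraries correlated at 0.082, 0.042 and 0.169 in F4MKO against Flox. They correlated at 0.111, 0.092 and 0.304 in F4MKO+FSTL1 against F4MKO and at 0.001, -0.099 and 0.206 in F4MKO+FSTL1 against Flox. On the second principal component of all tested genes (12.7% of the variance), replicate 3 lay at 20.1 in Flox, 16.8 in F4MKO and 24.2 in F4MKO+FSTL1. The other libraries lay between -20.7 and 2.40. What same-numbered libraries share was not tested.

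Over all genes, 39 calls in F4MKO against Flox became 338 with DESeq2, 478 without the filter, 134 with the block, 11 with 6 libraries and 0 to 100 with single libraries left out. The 2070 calls in F4MKO+FSTL1 against F4MKO ran from 1295 to 2216 with single libraries left out, and 3001 genes passed without a fold threshold. The single call in F4MKO+FSTL1 against Flox became 284 with DESeq2, 379 without the filter, 15 with the block and 0 to 101 with single libraries left out. The number of genes above the median spread was 8 under both other scales tried. Fosb, with at most 14 counts, did not pass the filter.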
